A study of Mus musculus with 9 samples.

Results

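The SOCS family of cytokine signalling inhibitors was described in bone marrow-derived dendritic cells (DCs). Members were taken by gene symbol from the deposited counts, and all 8 were found (*Socs1* to *Socs7* and *Cish*) among 55471 genes. RNA was sequenced from 3 groups of 3 libraries, all wild type, grown from the bone marrow of female C57BL/6 mice aged 8 to 20 weeks with GM-CSF and harvested at 6 h. The groups were unstimulated DCs, DCs activated with LPS (100 ng/mL), a component of the bacterial outer membrane, and DCs treated with IFN-β (1000 U/mL), a type I interferon. GM-CSF signals through a receptor that uses Janus kinases and was used to grow the cells of every group. Such cultures are a mixture of DC-like and macrophage-like cells, and the sources used here do not say whether the letters A, B and C of the libraries mark separate mice, so p-values measure the spread between these libraries. The 3 comparisons ask which members LPS changed, which members IFN-β changed, and where the stimuli differed.

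Cytokine receptors without a kinase of their own signal through Janus kinases (JAKs), which phosphorylate STAT transcription factors. STATs then enter the nucleus and switch on genes that include some of the SOCS genes, whose proteins damp the same receptors. Each SOCS protein has an SH2 domain, which binds phosphorylated tyrosines, and a C-terminal SOCS box, which recruits elongin B, elongin C and cullin 5 to form a ubiquitin ligase. SOCS1 and SOCS3 also carry a short region that blocks JAK activity directly, and are the members best known as brakes on interferon and IL-6 signalling in myeloid cells. CIS, the product of *Cish*, and SOCS2 are best known as inhibitors of receptors that use STAT5. The SH2 domain proteins SOCS4 to SOCS7 have long N-terminal regions and have mostly been studied at receptor tyrosine kinases.

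Each library held between 33425803 and 43735199 counts on genes, and 16260 genes, all 8 members among them, passed edgeR's filter on low counts. No pair of replicates agreed within counting noise. Expression is given as CPM, the usual unit for counts relative to the TMM-scaled library size, and a gene was called changed when its adjusted p-value was under 0.05 in edgeR's quasi-likelihood test. TMM scaling assumes that most genes do not change, and scaling by library size alone moves the median of all tested genes by -0.58 on the log2 scale in LPS-activated DCs and by -0.31 in IFN-β-treated DCs. Directions and calls below are therefore relative to the bulk of genes. The summed level of 8 DC markers was 4592 to 5465 CPM in unstimulated, 6053 to 6762 CPM in LPS-activated and 5084 to 5356 CPM in IFN-β-treated DCs. That of 6 macrophage markers was 1719 to 2168, 1874 to 2431 and 2417 to 2749 CPM. On this TMM scale, the DC marker sums of the LPS-activated libraries lay above those of all others. Most of the sum came from *Cd74* (2537 CPM on average in unstimulated and 3607 CPM in LPS-activated DCs), *Itgax* (1375 and 1602 CPM) and *H2-Ab1* (591 and 808 CPM). *Itgam* (301 and 265 CPM) and *Ciita* (85.4 and 80.3 CPM) averaged lower with LPS without a call, and *Cd209a*, on at most 16 counts, was not tested. With LPS, 4 of 7 tested DC markers were called higher and 0 lower on this scale, where 32.8% of all tested genes were higher and 35.4% lower. Under scaling by library size alone, 0 of these markers were higher and 3 lower. The part of this shift in the results on the family was not tested. Sums were 9.45 to 24.7 CPM for 6 neutrophil markers, at most 0.684 CPM for 8 lymphocyte markers (*Ncr1* had 0 counts in the unstimulated and IFN-β-treated libraries), at most 0.277 CPM for 5 mast cell and basophil markers and at most 0.262 CPM for 4 erythroid markers. In RNA from a whole culture, fewer cells that express a gene and less of its RNA per cell cannot be told apart.

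LPS changed 6 of the 8 members, where 68.2% of all tested genes were called changed. *Socs3*, *Socs1*, *Socs7* and *Cish* were higher (32.8% of all genes were), *Socs6* and *Socs5* were lower (35.4% of all genes were), and *Socs2* and *Socs4* were not called. IFN-β changed 4 of the 8, beside 46.9% of all genes. *Socs1*, *Socs3* and *Socs7* were higher (23.6% of all genes), although the direction of *Socs7* turned under scaling by library size alone, and *Socs5* was lower (23.3% of all genes). The IFN-β-treated and LPS-activated DCs differed in 7 of the 8 members, beside 49.1% of all genes: *Socs4*, *Socs5* and *Socs6* were higher with IFN-β (25.8% of all genes) and *Socs1*, *Socs3*, *Socs7* and *Cish* were lower (23.3%). Under scaling by library size alone, 3 members were called higher and 4 lower with LPS, 2 higher and 1 lower with IFN-β, and 4 higher and 3 lower with IFN-β than with LPS. The counts of members changed by either stimulus were close to the background. The 3 libraries of LPS-activated DCs lay wholly above those of unstimulated DCs for 4 members (34.6% of all genes) and wholly below for 3 (37.7%, with 72.4% in either direction). With IFN-β the libraries lay wholly above for 3 members (28.5%) and wholly below for 1 (29.6%, with 58.1% in either direction). Between IFN-β and LPS, 3 members lay wholly above (29.6%) and 4 wholly below (27.3%, with 56.8% in either direction). The median log2 fold change of the 8 members was 0.32 with LPS, 0.15 with IFN-β and -0.21 between IFN-β and LPS, where the medians of all tested genes were -0.04, -0.02 and 0.02. The comparisons of LPS and of IFN-β with unstimulated DCs share the unstimulated libraries, and each is given with its own values below.

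**Figure D1:**
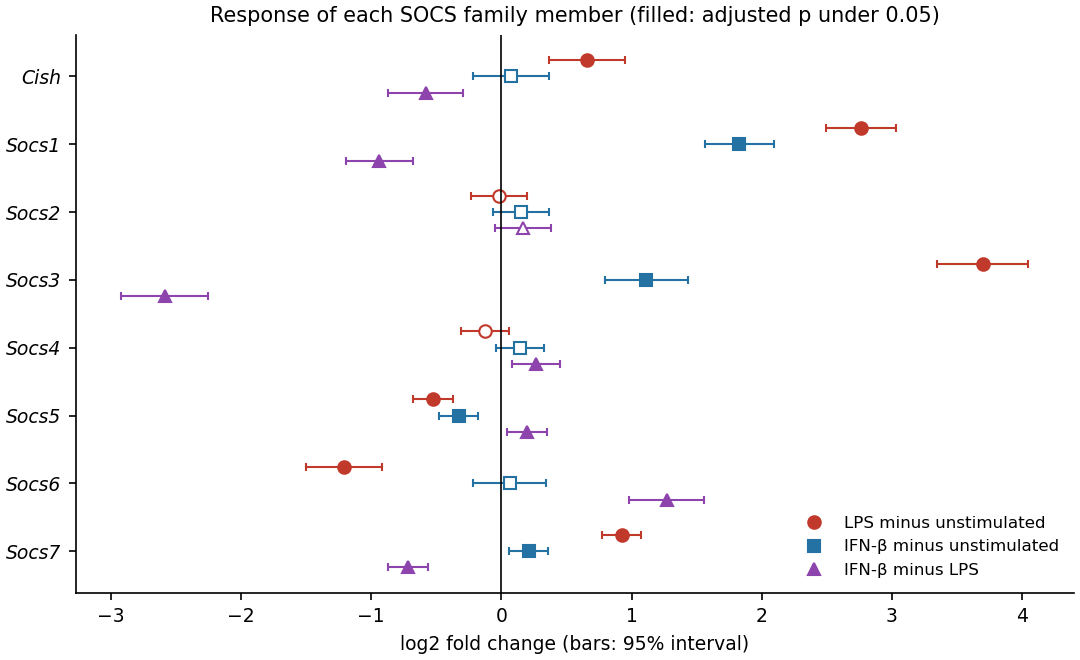
Log2 fold change of each member (x axis) in the 3 comparisons, with 95% intervals as bars and filled symbols for adjusted p-values under 0.05. *Socs3* and *Socs1* lie farthest to the right with LPS (3.70 and 2.76), *Socs6* lies farthest to the left with LPS (-1.21), and with IFN-β only *Socs1* and *Socs3* exceed 1 (1.83 and 1.11); under scaling by library size alone the IFN-β values of *Socs2*, *Socs4*, *Socs6*, *Socs7* and *Cish* turn negative, under upper-quartile factors those of *Socs6* and *Cish* do, and with DESeq2 the LPS value of *Socs2* turns positive.

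*Socs3*, which encodes the inhibitor that binds the gp130 chain of IL-6-type receptors, had the largest response to LPS in the family. Its gene lies on chromosome 11 (GRCm38, 117966079 to 117970047, minus strand). The window printed here ends 86 bases before the RefSeq start of *Socs3* (chr11:117969452-117969616, minus strand, GRCm38.p6), between exons of a longer annotated transcript, and is shown because it holds, in capitals, a match to the gamma-activated site (GAS), the palindrome that STAT dimers bind, 154 to 146 bases before the start.
Socs3: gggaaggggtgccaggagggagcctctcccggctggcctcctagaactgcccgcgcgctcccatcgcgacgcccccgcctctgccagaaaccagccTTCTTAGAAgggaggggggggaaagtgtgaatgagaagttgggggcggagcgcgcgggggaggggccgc
In unstimulated DCs, *Socs3* was at 56.7 CPM in library A, 63.4 CPM in B and 73.8 CPM in C. LPS-activated DCs held 901, 814 and 802 CPM, and IFN-β-treated DCs held 116, 131 and 173 CPM. All 3 groups were separate from each other, with every LPS library far above all others. *Socs3* rose 13.0-fold with LPS (log2 fold change 3.70 ± 0.16 SE, adjusted p = 1.52e-08) and 2.16-fold with IFN-β (1.11 ± 0.14, adjusted p = 0.000137), and it was 6.00-fold lower with IFN-β than with LPS (-2.58 ± 0.15, adjusted p = 3.21e-07). Under scaling by library size alone, the log2 fold change was 3.11 with LPS and 0.80 with IFN-β, both still called.

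*Socs1*, which encodes the inhibitor of JAKs at the interferon receptors, was the member that IFN-β raised the most. It is a short gene of chromosome 16 (10782240 to 10785536, minus strand). The 250 bases before its start (chr16:10785537-10785786, minus strand) are shown with a pair of overlapping matches to the core of the interferon-stimulated response element (ISRE), in capitals at 83 to 68 bases before the start.
Socs1: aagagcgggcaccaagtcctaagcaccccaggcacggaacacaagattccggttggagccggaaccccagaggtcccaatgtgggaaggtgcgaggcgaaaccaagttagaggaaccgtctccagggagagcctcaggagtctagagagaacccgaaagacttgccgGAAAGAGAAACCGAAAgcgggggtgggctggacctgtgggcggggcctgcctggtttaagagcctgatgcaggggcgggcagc
The unstimulated libraries held 39.3 (A), 37.8 (B) and 35.2 CPM (C) of *Socs1*. With LPS the values were 299, 257 and 206 CPM, and with IFN-β they were 132, 127 and 139 CPM. The groups did not overlap, and the lowest LPS library lay above the highest IFN-β library. *Socs1* rose 6.79-fold with LPS (2.76 ± 0.12, adjusted p = 1.89e-08) and 3.55-fold with IFN-β (1.83 ± 0.12, adjusted p = 1.95e-06). It was 1.91-fold lower with IFN-β than with LPS (-0.94 ± 0.12, adjusted p = 6.8e-05). Under scaling by library size alone, the log2 fold change was 2.18 with LPS and 1.52 with IFN-β, both still called.

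The relation between *Socs3* and *Socs1* within a library does not depend on how libraries are scaled. Unstimulated DCs held 1.44, 1.67 and 2.10 counts of *Socs3* for each count of *Socs1* in libraries A, B and C. LPS-activated DCs held 3.02, 3.17 and 3.89, and IFN-β-treated DCs held 0.880, 1.03 and 1.24. The order of the groups was the same for each letter, with LPS highest and IFN-β lowest, and no groups overlapped. The mean log2 ratio was 0.78 ± 0.27 (SD, n = 3) in unstimulated, 1.74 ± 0.19 in LPS-activated and 0.06 ± 0.25 in IFN-β-treated DCs. It was thus 0.96 higher with LPS and 0.73 lower with IFN-β than in unstimulated DCs (-0.73), and 1.68 lower with IFN-β than with LPS (-1.68). An exact two-sided permutation test gave p = 0.1 for each pair of groups, the smallest value that 3 against 3 allows (adjusted p = 0.1 over the 3 pairs).

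**Figure D2:**
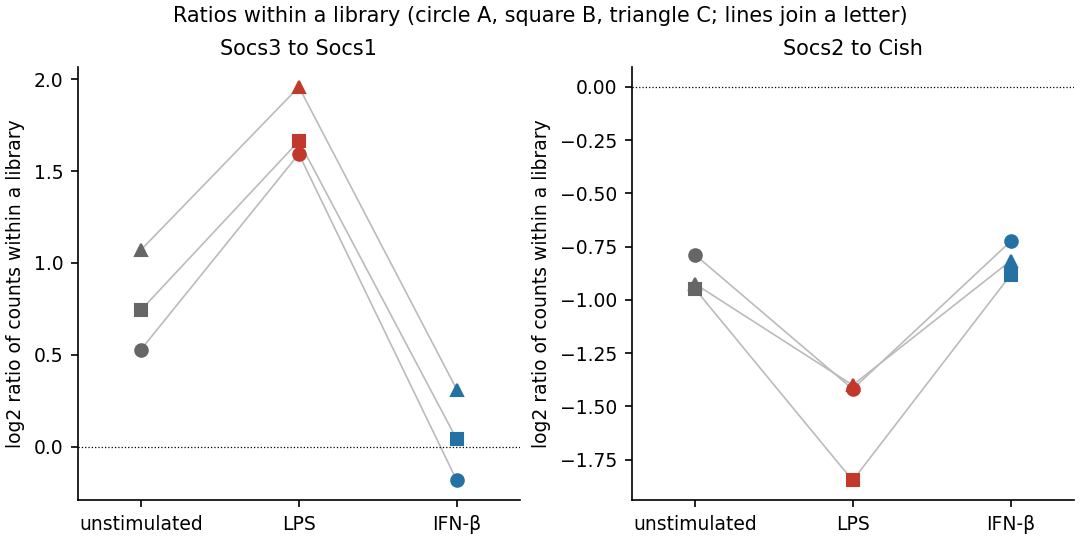
Log2 ratio of the counts of *Socs3* to *Socs1* (left) and of *Socs2* to *Cish* (right) in each library (y axis) by group (x axis), with lines joining libraries of the same letter. The *Socs3* to *Socs1* ratio is highest in the 3 LPS libraries (1.59 to 1.96) and lowest in the 3 IFN-β libraries (-0.18 to 0.31), and the *Socs2* to *Cish* ratio is lowest in the LPS libraries (-1.85 to -1.40).

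*Cish* and *Socs2* are both known as targets of STAT5, the STAT that GM-CSF activates. *Cish* lies on chromosome 9 (107296026 to 107302784, plus strand). Around its RefSeq start, within an annotated exon of another *Cish* transcript, 2 GAS matches stand 2 bases apart, at positions 1 to 9 and 12 to 20 from the start. They are shown in capitals with their flanks (chr9:107296654-107296683, plus strand, GRCm38.p6).
Cish: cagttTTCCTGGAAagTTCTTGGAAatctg
*Cish* had 179, 207 and 219.7 CPM without stimulation (A, B and C), then 261, 365 and 327 CPM with LPS and at 185, 221 and 231 CPM with IFN-β. The LPS libraries lay above all others, while the unstimulated and IFN-β-treated libraries overlapped. *Cish* rose 1.57-fold with LPS (0.66 ± 0.13, adjusted p = 0.00109) under TMM scaling, a call that was lost under scaling by library size alone (0.08, adjusted p = 0.66). With IFN-β its log2 fold change was 0.07 (95% interval -0.22 to 0.36, adjusted p = 0.677), which turned to -0.24 under scaling by library size alone, to -0.0041 under upper-quartile factors and to -0.010 without unstimulated library A. With IFN-β it was at 0.668 of its LPS level (-0.58 ± 0.13, adjusted p = 0.00391; -0.31, adjusted p = 0.102, under scaling by library size alone). Exons of *Cish* overlap those of 2 genes on the opposite strand, *Gm17040* (261 bases) and *Gm17041* (479 bases), which had 10 to 26 and 4 to 17 counts per library, where *Cish* had 7053 to 12533.

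*Socs2* (chromosome 10, 95385362 to 95417180, minus strand) encodes the inhibitor of growth hormone receptor signalling. It was at 104, 107 and 116 CPM in unstimulated libraries A, B and C, at 97.8, 101 and 124 CPM with LPS, and at 112, 119.8 and 131 CPM with IFN-β. The groups overlapped, and library C was the highest of each group. The log2 fold change was -0.02 with LPS (95% interval -0.23 to 0.20, adjusted p = 0.892), 0.15 with IFN-β (-0.06 to 0.37, adjusted p = 0.229) and 0.17 between IFN-β and LPS (-0.05 to 0.38, adjusted p = 0.181). With the letters as a replicate block, the IFN-β values passed the threshold (0.15, adjusted p = 0.0339, against unstimulated DCs, and 0.17, adjusted p = 0.0173, against LPS). Under scaling by library size alone, *Socs2* was instead lower with LPS (-0.60, adjusted p = 0.000507), stood at -0.16 with IFN-β (adjusted p = 0.254) and was higher with IFN-β than with LPS (0.44, adjusted p = 0.0065). Without LPS library C, *Socs2* was also higher with IFN-β than with LPS (0.27, adjusted p = 0.0258).

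Within a library, *Socs2* had fewer counts than *Cish* throughout. The number of *Socs2* counts for each *Cish* count in libraries A, B and C was 0.579, 0.519 and 0.527 without stimulation, 0.374, 0.278 and 0.379 with LPS, and 0.605, 0.542 and 0.568 with IFN-β. The LPS libraries were the lowest for each letter. The unstimulated and IFN-β libraries overlapped, although the ratio was higher with IFN-β for 3 of 3 letters (exact two-sided sign-flip p = 0.25, the smallest that 3 pairs allow). The log2 ratio was 0.67 lower with LPS than in unstimulated DCs (-0.67, exact permutation p = 0.1, adjusted p = 0.15), 0.08 higher with IFN-β (exact permutation p = 0.3, adjusted p = 0.3) and 0.75 higher with IFN-β than with LPS (exact permutation p = 0.1, adjusted p = 0.15).

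*Socs6* and *Socs7* encode related proteins that have been linked to insulin signalling and bind its substrates. *Socs6*, on chromosome 18, was at 93.7, 86.9 and 72.0 CPM in unstimulated libraries A, B and C, at 43.9, 33.7 and 31.9 CPM with LPS and at 94.7, 87.4 and 81.7 CPM with IFN-β. Its LPS libraries were all below the others, and its unstimulated and IFN-β-treated libraries overlapped. *Socs6* fell with LPS to 0.433 of its unstimulated level (-1.21 ± 0.13, adjusted p = 1.15e-05, and -1.79 under scaling by library size alone), the largest fall in the family. With IFN-β the log2 fold change was 0.06 (95% interval -0.22 to 0.35, adjusted p = 0.713), and it turned to -0.24 under scaling by library size alone, to -0.013 under upper-quartile factors and to -0.039 without unstimulated library C. *Socs6* was 2.41-fold higher with IFN-β than with LPS (1.27 ± 0.13, adjusted p = 1.95e-05).

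*Socs7* (chromosome 11, 97362551 to 97398542, plus strand) moved in the other direction with LPS. Its levels were 35.9, 34.3 and 35.9 CPM in unstimulated DCs, 72.1, 66.5 and 62.8 CPM with LPS and 40.6, 39.0 and 43.1 CPM with IFN-β, in the order A, B and C. The 3 groups did not overlap. *Socs7* rose 1.90-fold with LPS (0.92 ± 0.07, adjusted p = 6.49e-07; 0.34, adjusted p = 0.000518, under scaling by library size alone) and was lower with IFN-β than with LPS (-0.71 ± 0.07, adjusted p = 1.19e-05; -0.44 under scaling by library size alone). Its rise of 1.16-fold with IFN-β (0.21 ± 0.07, adjusted p = 0.0286) did not hold under scaling by library size alone (-0.10, adjusted p = 0.212), under upper-quartile factors (0.13, adjusted p = 0.12) or without a filter on low counts (0.21, adjusted p = 0.0813). It was also lost without unstimulated library A (adjusted p = 0.0575), B (adjusted p = 0.107) or C (adjusted p = 0.059) and without IFN-β library A (adjusted p = 0.0626) or C (adjusted p = 0.0989), with log2 fold changes of 0.17 to 0.22 in these fits.

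*Socs4* and *Socs5* encode closely related proteins studied at the EGF receptor. *Socs5* (chromosome 17, 87107679 to 87137839, plus strand) was at 20.8, 21.1 and 20.7 CPM in unstimulated libraries A, B and C, at 14.9, 14.3 and 14.3 CPM with LPS and at 17.2, 15.6 and 17.1 CPM with IFN-β. It was the member with the fewest counts in every library, and its replicates lay close together, at 20.9 ± 0.209 CPM (SD, n = 3) in unstimulated and 14.5 ± 0.309 CPM in LPS-activated DCs. *Socs5* was the only member that fell with both stimuli, to 0.695 of its unstimulated level with LPS (-0.52 ± 0.07, adjusted p = 4.78e-05; -1.11 under scaling by library size alone) and to 0.798 with IFN-β (-0.33 ± 0.07, adjusted p = 0.00263; -0.63 under scaling by library size alone). Against LPS, *Socs5* was 1.15-fold higher with IFN-β (0.20 ± 0.07, adjusted p = 0.0337). This call was lost with DESeq2 (0.17, adjusted p = 0.115), without a low-count filter (0.22, adjusted p = 0.118), in a fit of the 2 groups alone (0.22, adjusted p = 0.0511), and without unstimulated library B (0.20, adjusted p = 0.0503), LPS library A (0.21, adjusted p = 0.0583), B (0.18, adjusted p = 0.0861) or C (0.18, adjusted p = 0.087), or IFN-β library A (0.17, adjusted p = 0.102) or C (0.18, adjusted p = 0.0956).

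*Socs4* (chromosome 14, 47276931 to 47296102, plus strand) was at 43.3, 43.5 and 42.3 CPM in unstimulated libraries A, B and C, at 41.0, 37.3 and 40.2 CPM with LPS, and at 52.7, 47.9 and 41.9 CPM with IFN-β. The LPS libraries were all below the unstimulated ones, a separation that 72.4% of all tested genes showed in either direction. The log2 fold change with LPS was -0.12 (95% interval -0.31 to 0.06, adjusted p = 0.204), and *Socs4* was called lower under upper-quartile factors (-0.22, adjusted p = 0.0313) and under scaling by library size alone (-0.71, adjusted p = 1.39e-05). With IFN-β the value was 0.14 (95% interval -0.04 to 0.32, adjusted p = 0.184), which turned to -0.16 under scaling by library size alone and passed the threshold without IFN-β library C (0.23, adjusted p = 0.0338). *Socs4* was 1.20-fold higher with IFN-β than with LPS (0.27 ± 0.08, adjusted p = 0.0211; 0.54 under scaling by library size alone), a call that was lost without LPS library B (0.22, adjusted p = 0.0825) or IFN-β library A (0.18, adjusted p = 0.0879) or B (0.26, adjusted p = 0.0592).

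**Figure D3:**
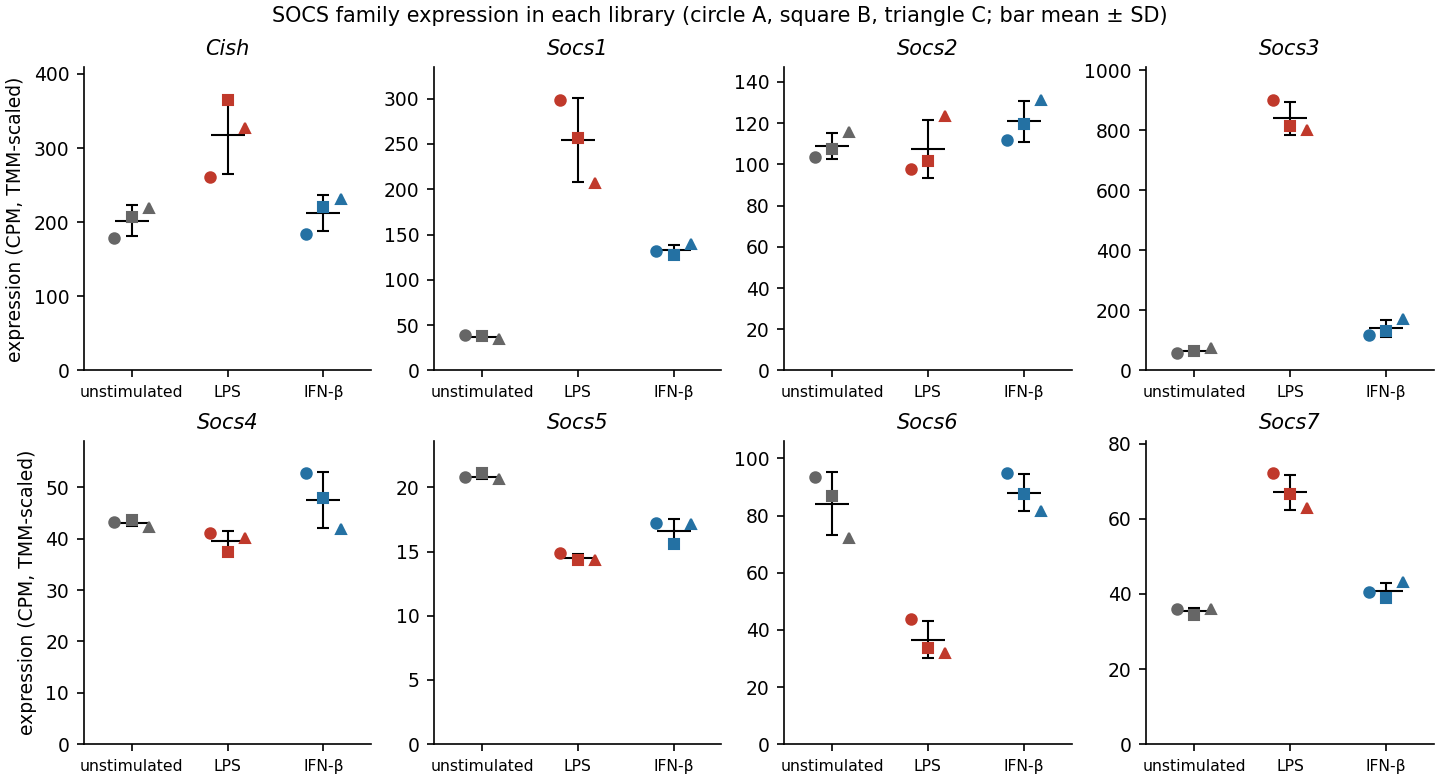
Expression of each member in each library (y axis, CPM on TMM-scaled library sizes, starting at 0; x axis, group), with the mean and SD of 3 libraries as bars. *Socs3* stands at 802 to 901 CPM in the LPS libraries and 56.7 to 73.8 CPM in the unstimulated ones, *Socs6* is lower with LPS alone, and *Socs2* overlaps across the groups.

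The promoter windows were searched on both strands for the GAS (TTC and GAA with a spacer of any 3 or any 4 bases), the ISRE core (GAAA, any 2 bases, GAAA) and the kappaB consensus. RefSeq (GRCm38.p6) windows of 250 bases before to 50 bases after the start were at hand for 4 of the 8 members, *Socs1*, *Socs3*, *Socs4* and *Cish*. Of 32851 such windows, 8.30% held the GAS with the 3-base spacer, 6.95% that with the 4-base spacer, 3.44% the ISRE core and 8.46% the kappaB consensus. The matches printed above were the only ones in the 4 windows, and the *Socs4* window held none of these motifs. A match describes the letters of a window and is not a measured binding site.

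Levels of different members were compared per kilobase of transcript, with the length taken either as the union of all annotated exons or as the principal transcript. These lengths differ most for *Socs2* (9531 or 2222 bases), *Cish* (6419 or 2850 bases) and *Socs6* (11349 or 6036 bases). They differ less for *Socs5* (6416 or 4648 bases), *Socs3* (2891 or 2552 bases) and *Socs7* (7265 or 7015 bases). In unstimulated DCs, *Cish* had the highest level on either length (31.4 ± 3.26 CPM per kilobase of union, SD, n = 3; 70.8 ± 7.35 on the principal transcript). On union lengths it was followed by *Socs3* (22.4 ± 2.99), *Socs1* (12.9 ± 0.723), *Socs2* (11.4 ± 0.657), *Socs6* (7.42 ± 0.975), *Socs4* (6.26 ± 0.0919), *Socs7* (4.87 ± 0.125) and *Socs5* (3.25 ± 0.0326), and *Socs1* and *Socs2* were the only neighbours whose libraries overlapped. On principal transcripts, *Socs2* came second (49.0 ± 2.82).

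With LPS, *Socs3* was the highest on either length (290.3 ± 18.8 per kilobase of union and 329 ± 21.3 on the principal transcript). *Socs1* followed on union lengths (87.4 ± 15.9) and *Cish* on principal transcripts (111 ± 18.4), and no neighbours in the union order overlapped, while *Cish* and *Socs1* overlapped on principal transcripts. With IFN-β, *Socs3* (48.4 ± 10.1) and *Socs1* (45.7 ± 2.08) overlapped at the top of the union order, above *Cish* (33.1 ± 3.83), whereas on principal transcripts *Cish* was the highest (74.5 ± 8.63), followed by *Socs3* (54.8 ± 11.5) and *Socs2* (54.4 ± 4.47). The principal-transcript values of *Cish* (64.8 to 81.2) overlapped those of *Socs3* (45.6 to 67.7), which overlapped those of *Socs2* (50.2 to 59.1). *Socs6* (7.75 ± 0.575) and *Socs4* (6.91 ± 0.783) also overlapped on union lengths. *Socs5* was the lowest member in all groups on both lengths.

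Summed over the 8 members on union lengths, the family stood at 94.6, 100.4 and 105 CPM per kilobase in unstimulated libraries A, B and C, at 488, 457 and 432 with LPS, and at 150.5, 158 and 179 with IFN-β. *Socs3* made up 22.3% ± 1.88 (SD, n = 3) of this sum in unstimulated, 63.3% ± 1.46 in LPS-activated and 29.5% ± 3.39 in IFN-β-treated DCs. The share of *Socs1* was 12.9% ± 1.37, 18.9% ± 2.34 and 28.2% ± 1.83 in the same order, and that of *Cish* was 31.4% ± 1.73, 10.9% ± 2.19 and 20.3% ± 1.33. The share of *Cish* was smallest with LPS although its own level was highest there. On principal transcripts the *Socs3* share was 13.5% ± 1.05, 54.7% ± 2.21 and 20.9% ± 2.46, and that of *Socs2* was 26.1% ± 0.471, 8.09% ± 1.34 and 20.9% ± 0.166.

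**Figure D4:**
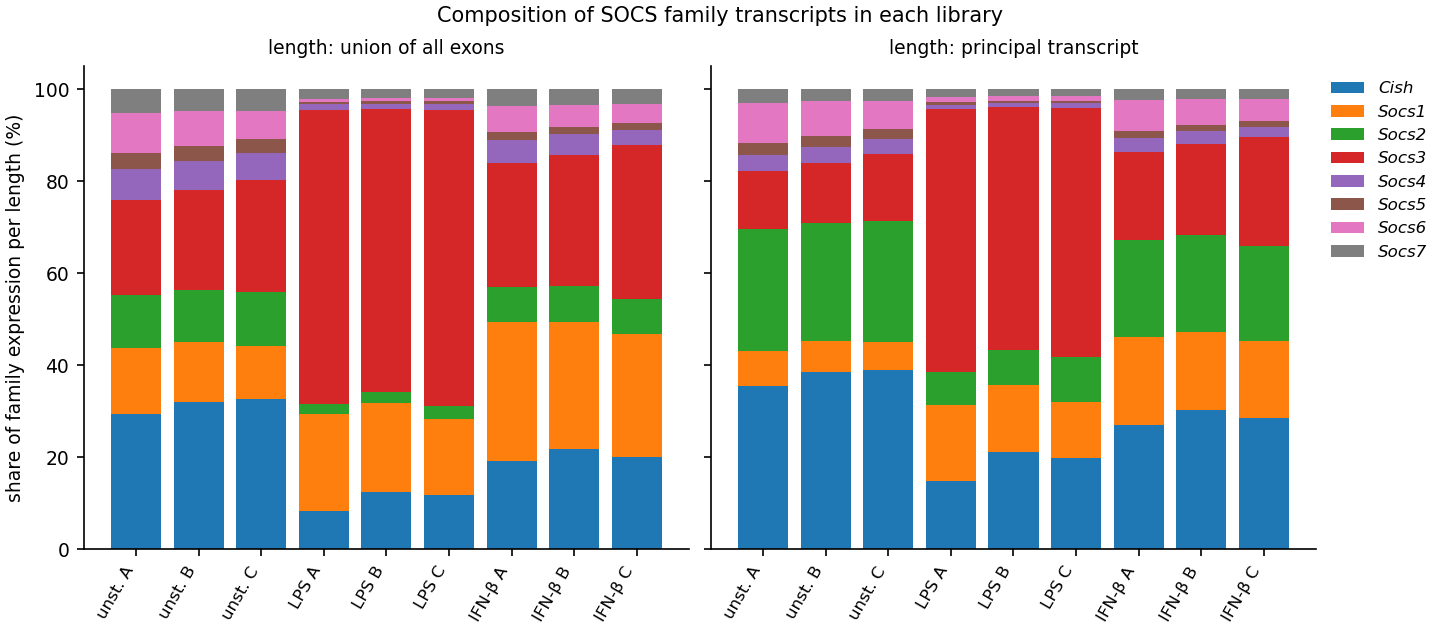
Share of each member in the summed level of the family per length (y axis, %) in each of the 9 libraries (x axis), with lengths from the union of exons (left) or the principal transcript (right). *Socs3* takes 61.6% to 64.2% of the LPS libraries on union lengths. Shares depend on the length used, as in unstimulated DCs for *Socs2* (11.4% or 26.1%) and *Socs3* (22.3% or 13.5%), while *Socs6* stands there at 7.47% or 7.48%.

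Genes whose log2 levels followed those of a member most closely over the 9 libraries were found by Pearson's r, as a description. The 9 libraries fall into 3 groups and are not independent points, and high values of r were common: 1245 of the other 16259 tested genes had an r over 0.95 with *Socs1* and 1105 with *Socs3*. The closest genes were *Dll1*, a Notch ligand (r = 0.999), and *Mfsd7a* (0.999) for *Socs1*, and *Tet2*, a DNA demethylation enzyme (r = 0.9995), and *Plpp1* (0.999) for *Socs3*. *Tet2* was at 155, 541 and 221 CPM on average in unstimulated, LPS-activated and IFN-β-treated DCs. For *Socs7* they were *Kremen1* and *Elovl2* (both r = 0.997), for *Socs6* *Myo1e* (0.997) and *Mcf2l* (0.996), for *Socs5* *Svip* (0.993) and *Dclk3* (0.985), and for *Cish* *Spata48* (0.984) and *Klc2* (0.982). The members with small differences between groups had few close genes, 2 with an r over 0.95 for *Socs2* (*Htt*, 0.955, and *Calr*, 0.954) and 2 for *Socs4* (*Arl14ep*, 0.967, and *Rbm15*, 0.961).

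Among the other parts of the pathway, the ubiquitin ligase core that SOCS boxes recruit changed in 2 of its 4 genes with each stimulus, where 68.2% of all tested genes changed with LPS and 46.9% with IFN-β. Under scaling by library size alone, 1 was called higher and 3 lower with LPS, and 0 higher and 3 lower with IFN-β. *Eloc*, which encodes elongin C, rose from 24.7 ± 1.71 CPM (SD, n = 3) to 51.0 ± 2.11 with LPS (1.05 ± 0.07 SE, adjusted p = 3.75e-07) and was at 28.8 ± 1.51 with IFN-β (0.23, adjusted p = 0.026, but -0.08 under scaling by library size alone). *Rnf7*, the RING subunit that pairs with cullin 5, was lower with both (-0.37, adjusted p = 0.00155, and -0.24, adjusted p = 0.0284). *Elob* and *Cul5* were not called, with log2 fold changes between -0.10 and 0.16 against unstimulated DCs. Under scaling by library size alone both were called lower, *Elob* at -0.42 (adjusted p = 0.000466) and *Cul5* at -0.47 (adjusted p = 0.000564) with LPS, and at -0.31 (adjusted p = 0.00636) and -0.41 (adjusted p = 0.00257) with IFN-β. The list's median was 0.14 with LPS and -0.05 with IFN-β.

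All 4 JAK genes were called higher with each stimulus, with medians of 0.84 and 0.61, where 32.8% of all tested genes were higher with LPS and 23.6% with IFN-β. Under scaling by library size alone, 2 of the 4 were called in each case and *Jak3* turned to -0.17 with LPS. *Jak2*, the kinase of the GM-CSF receptor, had the largest rise (291 ± 26.6, 1268 ± 69.8 and 487 ± 28.0 CPM in unstimulated, LPS-activated and IFN-β-treated DCs; log2 fold changes 2.12, adjusted p = 1.71e-08, and 0.74, adjusted p = 8.42e-05). Of 7 STAT genes, 6 were called higher with LPS and 4 with IFN-β and none lower, with medians of 1.73 and 0.56, whereas under scaling by library size alone 5 were higher and 1 lower with LPS and 4 were higher and 3 lower with IFN-β. *Stat5a*, which encodes a STAT5 protein, rose with LPS (2.68 ± 0.10, adjusted p = 5.34e-09) and had a log2 fold change of 0.03 with IFN-β (adjusted p = 0.844, and -0.28 under scaling by library size alone).

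The cytokine receptor chains were called in both directions, as were all tested genes (32.8% higher and 35.4% lower with LPS, 23.6% and 23.3% with IFN-β). Of 24 tested (27 listed), 17 were higher and 6 lower with LPS, and 12 were higher and 6 lower with IFN-β (13 and 9, and 9 and 7, under scaling by library size alone), with medians of 0.92 and 0.46. *Il12rb1*, a chain of the IL-12 receptor, had the largest rise with either stimulus (2.47, adjusted p = 2.24e-05, and 3.73, adjusted p = 4.81e-06), *Lifr* had the largest fall with LPS (-2.68, adjusted p = 1.05e-05) and *Lepr* with IFN-β (-1.13, adjusted p = 0.0383). *Il6st*, which encodes the gp130 chain that SOCS3 binds, fell with LPS from 254 ± 26.7 to 82.4 ± 2.85 CPM (-1.62 ± 0.10, adjusted p = 1.14e-07) and less with IFN-β, to 194 ± 20.2 CPM (-0.38 ± 0.09, adjusted p = 0.00628). It was chosen for mention after its values were seen. Among 10 tested receptor tyrosine kinases and adaptors, 2 were higher and 4 lower with LPS and 3 higher and 4 lower with IFN-β (1 and 7, and 1 and 6, under scaling by library size alone), with medians of -0.16 and -0.28. *Igf1r* had the largest fall with each stimulus (-1.33, adjusted p = 2.21e-05, and -1.80, adjusted p = 1.14e-05), and *Erbb2* the largest rise (2.97, adjusted p = 1.38e-05, and 1.07, adjusted p = 0.0445, or 0.77, adjusted p = 0.121, under scaling by library size alone) on 3 to 33 counts per library. *Erbb2* averaged 0.117 CPM in unstimulated, 0.249 CPM in IFN-β-treated and 0.946 CPM in LPS-activated DCs. It passed the filter on low counts only through the LPS libraries, so its rise with LPS was fixed in advance.

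All 14 tested cytokine ligands of 18 listed were called higher with LPS (32.8% of all tested genes were), and 6 with IFN-β (23.6%). Their median log2 fold change was 7.24 with LPS and 1.31 with IFN-β, or 5.91 and 1.40 with *Csf2*, which had 0 counts in every unstimulated and IFN-β-treated library, set to its bound of at least 13.1-fold higher with LPS (against 3 counts per library) or left out with IFN-β. *Csf2*, *Csf3*, *Ifnb1*, *Il10*, *Il12a* and *Tslp* averaged at most 0.197 CPM in unstimulated and in IFN-β-treated DCs. They passed the filter on low counts only through the LPS libraries, so their rise with LPS was fixed in advance. *Ifng*, *Il4*, *Il11* and *Il13* did not pass it. The count and median with LPS therefore do not measure how often ligands rise. *Il6* rose the most with LPS, from 1.39 ± 0.630 to 1629 ± 322 CPM (10.18 ± 0.38, adjusted p = 7.29e-09). *Ifnb1* had the largest fitted change with IFN-β (4.18 ± 0.81, adjusted p = 0.00178) on few counts, 0, 0 and 1 without stimulation and 9, 5 and 9 with IFN-β, a ratio of 25.3 with a 95% counting interval of 4.11 to 1040.

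Of 13 other inhibitors of JAK and STAT signalling, 10 were called higher and 1 lower with LPS and 7 higher with IFN-β, with medians of 0.46 and 0.23. Of all tested genes, 32.8% were higher with LPS and 23.6% with IFN-β. Under scaling by library size alone, 5 of the 13 inhibitors were higher and 6 lower with LPS, and 3 were higher and 2 lower with IFN-β. *Usp18*, which blocks JAK1 at the type I interferon receptor, rose from 41.1 ± 16.1 to 1078 ± 111 CPM with LPS (4.71 ± 0.27, adjusted p = 1.01e-07) and to 529 ± 24.3 CPM with IFN-β (3.69 ± 0.26, adjusted p = 3.01e-06). *Sh2b3*, an adaptor that restrains JAK2, was lower with LPS (-0.32 ± 0.06, adjusted p = 0.000705). Of the 19 other SOCS-box genes tested (27 listed), 8 were higher and 4 lower with LPS and 7 higher and 3 lower with IFN-β (4 and 12, and 4 and 7, under scaling by library size alone), with medians of 0.10 and 0.06. In either direction 12 were called with LPS and 10 with IFN-β, beside 68.2% and 46.9% of all tested genes. *Spsb1* had the largest rise with LPS (2.44 ± 0.14, adjusted p = 8.74e-08) and *Asb11* with IFN-β (2.16 ± 0.17, adjusted p = 6.17e-06), and *Asb16* had the largest fall with both (-2.99, adjusted p = 0.000124, and -1.06, adjusted p = 0.0249) on 1 to 49 counts per library.

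**Figure D5:**
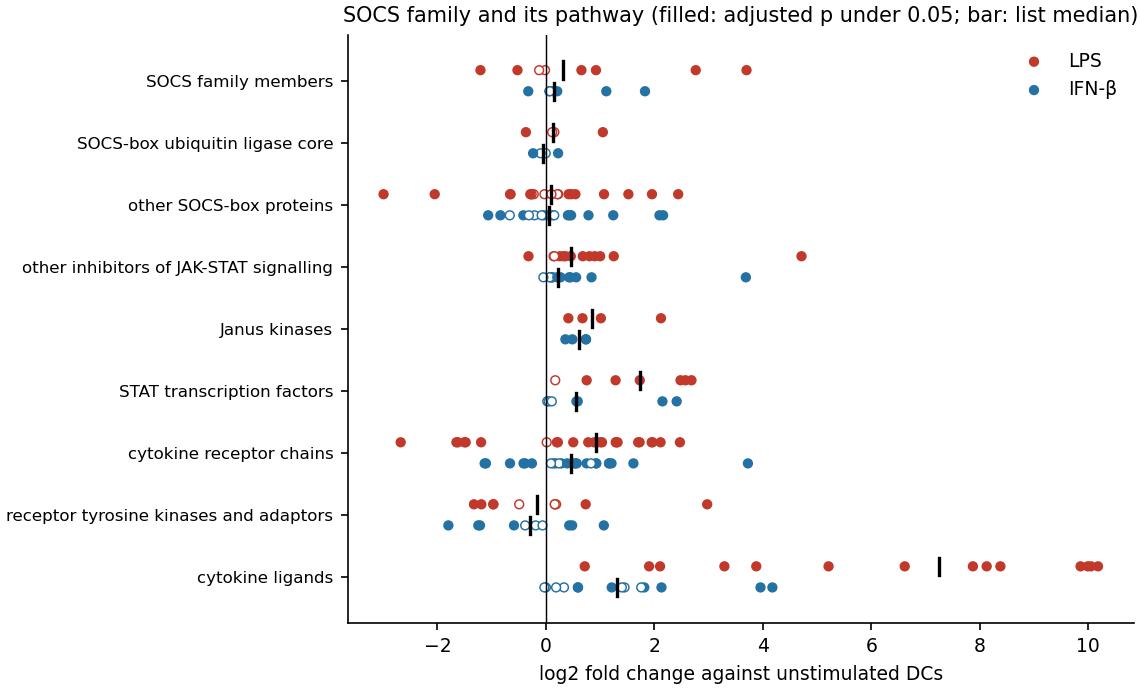
Log2 fold change of each tested gene against unstimulated DCs (x axis) with LPS (red) and IFN-β (blue) for the SOCS family and 8 lists of its pathway (y axis), with black bars at the list medians. The cytokine ligands reach 10.18 with LPS (*Il6*), the JAK genes all lie to the right of 0 under TMM scaling (*Jak3* turns to -0.17 with LPS under scaling by library size alone), and the 8 SOCS family members spread from -1.21 to 3.70 with LPS.

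Between IFN-β and LPS, most called genes of the ligand, STAT, JAK, other inhibitor and ligase core lists were lower with IFN-β under TMM scaling. Lists are grouped here by that result. Of all tested genes, 25.8% were called higher and 23.3% lower with IFN-β than with LPS. The cytokine ligands were lower in 13 of 14 genes and higher in none (1 higher under scaling by library size alone), with a median of -4.71 (-4.06 with *Csf2* at its bound of at least 11.9-fold lower), led by *Il12b* (-9.72 ± 0.21, adjusted p = 1.16e-09). The limit given above for ligands that passed the filter only through the LPS libraries applies here too. Of the STAT genes 3 of 7 were lower and none higher (1 higher under scaling by library size alone), with a median of -0.33, led by *Stat5a* (-2.66 ± 0.10, adjusted p = 2.04e-08). Of the JAK genes 2 of 4 were lower (median -0.23; 1 under scaling by library size alone), led by *Jak2* (-1.38 ± 0.09, adjusted p = 7.14e-07). The other inhibitors were lower in 6 of 13 genes and higher in 1 (4 and 4 under scaling by library size alone), with a median of -0.24 and with *Usp18* at -1.03 (adjusted p = 0.00427) and *Sh2b3* at 0.27 (adjusted p = 0.00338).

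In the remaining lists, called genes went in both directions between IFN-β and LPS, except in the ligase core. Of the 4 ligase core genes 2 were lower and none higher (1 and 1 under scaling by library size alone; median -0.19), led by *Eloc* (-0.82 ± 0.07, adjusted p = 6.1e-06). Among receptor chains 6 were higher and 7 lower (11 and 2 under scaling by library size alone; median -0.08), with *Lifr* at 1.57 (adjusted p = 0.00108) and *Ifnar2*, a chain of the type I interferon receptor, at -1.17 (adjusted p = 4.91e-06). Receptor tyrosine kinases and adaptors were higher in 3 and lower in 5 of 10 genes (3 and 1 under scaling by library size alone; median -0.34), with *Csf1r*, the M-CSF receptor, at 0.91 (adjusted p = 8.4e-06) and *Erbb2* at -1.91 (adjusted p = 0.000361). The limit of the filter given above for *Erbb2* applies to this value too. The other SOCS-box genes were higher in 7 and lower in 5 of 19 (12 and 2 under scaling by library size alone; median 0.14), with *Asb16* at 1.93 (adjusted p = 0.00746) and *Spsb1* at -1.20 (adjusted p = 2.94e-05).

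Of the 8 genes kept as markers of stimulation, all were called higher with LPS (32.8% of all tested genes were) and 6 with IFN-β (23.6%). The largest rises were those of *Il6* with LPS and of *Ifit1*, an interferon-induced antiviral gene, with IFN-β (4.93 ± 0.40, adjusted p = 6.76e-06). *Ifit1* rose more with LPS (6.47), and *Tnf* and *Il6* were called higher with both stimuli. *Il1b* (7.14 with LPS and 0.45 with IFN-β) and *Il12b* (10.05 and 0.33) were called with LPS alone. In the direct comparison, 7 of the 8 were called lower with IFN-β than with LPS, where 23.3% of all tested genes were. *Irf7* was not called (-0.22, adjusted p = 0.737, and 0.06 under scaling by library size alone). These genes were chosen with earlier results of these data known, so their calls describe the libraries and do not test the stimulation.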

How the data were processed

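RNA was sequenced from 9 libraries of mouse DCs in 3 groups of 3. The authors made libraries from total RNA after ribosomal RNA removal and read paired ends of 100 bases. Per the submitters' processing notes they trimmed with Trim Galore 0.6.0 and mapped to GRCm38 (mm10) with STAR 2.7.8a, where the paper's methods name another STAR version. Reads were counted per gene on GENCODE annotation by STAR, and the strand column used is not given in the sources used here. The authors deposited the counts as they were, not normalized and not filtered, and every value here was computed from these counts.

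Groups came from the labels. The members and gene lists were chosen with earlier results of these data known. Counts were tested with edgeR 4.0.16 in R 4.3.3 with TMM factors and quasi-likelihood F-tests, which the paper's methods name, and Benjamini-Hochberg adjustment over all tested genes. The filter (filterByExpr, 16260 of 55471 genes) and the design of 1 term per condition over 9 libraries, with no replicate block, were chosen here. SE is the absolute log2 fold change divided by the square root of F. Ratios within a library were compared by exact two-sided permutation. Levels for the search of similar genes were log2(CPM + 0.5). The named genes are the members, the ligase core, JAK and STAT genes, the genes with the largest called rise and fall of each other list, and the 2 genes most correlated with each member; some genes that this rule names are not reported here. Exons and coordinates came from GENCODE M21 (55230 of 55471 identifiers found). Promoter sequences came from RefSeq.

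After subtraction of group means, libraries of the same letter correlated across genes in all 9 pairs (r 0.134 to 0.546) and those of other letters at -0.48 to 0.0622, so the letters were taken to pair the samples from the data alone. The main fit and the exact permutation tests of ratios did not use this pairing. The replicate block and the sign-flip test did. Alternatives were DESeq2 1.42.0, library size alone, upper-quartile factors, no filter, at least 10 counts in every library, 2 groups alone, the replicate block, each of the 9 libraries left out, and a threshold of 1 on the size of the log2 fold change. Libraries held 33425803 to 43735199 counts. Intervals of log2 fold changes come from the model and include the spread between libraries, whereas the interval of the *Ifnb1* count ratio and the floor of 3 counts cover counting error only.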

Additional observations from a re-analysis of the deposited data

How the results depend on the processing

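Over 384 alternative values for the members (16 for each of 24), 342 kept their direction and their side of the threshold, 21 lost a call, 8 gained one and 13 turned in direction. These 16 leave out the threshold of 1 on the size of the log2 fold change, which is given separately. The calls on *Socs1* and *Socs3* held in all 3 comparisons under all 16 alternatives, as did those on *Socs6* and *Socs7* with LPS and against LPS and those on *Socs5* with each stimulus. With a log2 fold change of 1 or more in size required, 3 members were called with LPS (33.4% of all genes), 2 with IFN-β (12.6%) and 2 between IFN-β and LPS (17.4%). Calls lost by that rule included those on *Socs1* between IFN-β and LPS (-0.94), *Socs7* with LPS (0.92) and *Socs5* with each stimulus (-0.52 and -0.33). Directions that turned all belonged to values that did not pass the threshold, except *Socs7* with IFN-β. Scaling by library size alone turned the IFN-β values of *Socs2* (-0.16), *Socs4* (-0.16), *Socs6* (-0.24), *Socs7* (-0.10) and *Cish* (-0.24), and upper-quartile factors turned those of *Socs6* (-0.013) and *Cish* (-0.0041). With DESeq2 the LPS value of *Socs2* was 0.023. Over the fits without 1 library, *Socs2* ranged from -0.13 to 0.050 with LPS (above 0 without unstimulated C, LPS A or LPS B), and with IFN-β *Socs6* ranged from -0.039 (without unstimulated C) to 0.14 and *Cish* from -0.010 (without unstimulated A) to 0.16. The causes were not tested. The replicate block moved the members called from 4 to 5 with IFN-β and from 7 to 8 against LPS, in each case by *Socs2*, and changed no other call on a member. Scaling by library size alone moved the share of all called genes that were higher from 48.1% to 21.9% with LPS, from 50.3% to 22.3% with IFN-β and from 52.5% to 77.9% between IFN-β and LPS. With 3 libraries a group, an exact test of a ratio cannot reach 0.05.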
